A study of Arabidopsis thaliana with 10 samples.

Results

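The 2 wild type (WT) replicates of a seedling study in Arabidopsis thaliana were compared with each other, replicate 1 against replicate 2 at 7 days and again at 15 days of age, to describe which genes and functions separated them in the same direction at both ages. The comparison rests on 4 of the 10 arrays of the series, each hybridized with labelled RNA from whole seedlings raised in short days on agar with sucrose. WT carried no transgene or mutant allele. The other 6 arrays, 1 per line and age, came from LFYasEMF1 (an antisense RNA of the Polycomb gene EMF1 under the promoter of LEAFY), from ult1-3 (a mutant allele of the trithorax group gene ULT1) and from the line LFYasEMF1/ult1-3, and are used only where stated. Both replicate 1 arrays of WT lay on slide 1 with the LFYasEMF1 arrays, whereas replicate 2 lay on slide 2 at 7 days and on slide 3 at 15 days with ult1-3 and LFYasEMF1/ult1-3. The labels give no hour of harvest and do not say whether the replicates were separate plantings. Replicate, slide and any difference in the time or handling of harvest therefore cannot be told apart. No replicate of a line had more than 1 array per age. A p-value here thus measures the difference against how unevenly the change with age ran across the WT replicates and the mutant lines. That spread may be technical in part, and it may also hold differences between the lines.

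The plant circadian clock is a set of interlocked repressive loops. The related MYB factors LHY and CCA1 peak at dawn and repress genes that peak in the evening, among them TOC1, GI and the ELF3, ELF4 and LUX genes, whose products form the evening complex. PRR9, PRR7 and PRR5 are pseudo-response regulators that are expressed one after another through the day and repress LHY and CCA1. Starch turnover, flavonoid synthesis, cold response and many other functions of a leaf are among the outputs of this clock.

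Between 74.5% and 80.1% of spots were well above background on the 4 WT arrays, the 75th percentile of their signal lay between 4918 and 5996, and no spot was saturated. Levels below are log2 of the processed signal divided by the array's 75th percentile. Differences are replicate 1 minus replicate 2 on that log2 scale, given as the mean of both ages (2 arrays against 2) ± SE. The SE is that of the limma fit to all 10 arrays, so the spread of the mutant arrays enters it. The markers of green tissue were present at a like summed level (361 and 374 in replicate 1, 337 and 287 in replicate 2, as multiples of the 75th percentile), as were those of the root (4.97 and 2.84 against 3.84 and 2.89). All 4 green and all 8 root markers were well above background on each WT array, and none differed by the test. Of the flower and seed markers, AP1, AP3, CRU3, OLEO1 and SESA3 were well above background on no WT array. The other 2 flower markers, PI and AG, were well above background on all 4 WT arrays. The summed level was 0.0511 and 0.113 against 0.0724 and 0.132 for flower and at most 0.00784 for seed. The 10 RNA spike-ins differed by −0.46 to 0.37 at 7 days (median −0.05) and by 0.21 to 1.81 at 15 days (median 1.55), so that at 15 days they sat higher against the seedling signal in replicate 1. Their part in the results at 15 days was not tested. Of 7 kept reference genes none passed the test, with a median difference of 0.26.

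Across the 22353 genes tested, the replicates differed by at least 2-fold in 5931 genes at 7 days and in 5478 at 15 days. The difference went the same way at both ages in 1856 of these (8.3% of all genes), with 985 (4.41%) higher and 871 (3.9%) lower in replicate 1, and it went in opposite ways in 404. At 4-fold, 362 genes agreed in direction and 24 did not. By limma, with Benjamini-Hochberg adjustment over all genes and an adjusted p under 0.05, 699 genes (3.13%) differed between the replicates over both ages, of which 435 (1.95%) were higher and 264 (1.18%) lower in replicate 1. All 699 had the same sign at both ages, 695 passed 2-fold at each age, and in 683 the replicate 1 arrays did not overlap the replicate 2 arrays. These 3 counts follow largely from the test, which selects on the mean and the agreement of the same differences. Over all genes, replicate 1 lay above replicate 2 without overlap in 20.3% and below it in 20.5%. An interaction term set the change with age in WT replicate 1 against the change with age shared by all other arrays, mutants included, and no gene passed it by limma (2621 genes at an unadjusted p under 0.05). With an age term of its own for WT, so that the replicate difference at 15 days was set against that at 7 days alone, no gene passed either (3398 at an unadjusted p under 0.05). The count of 699 rested on each of the 4 arrays: it was 311 without replicate 1 at 7 days, 39 without replicate 2 at 7 days, 241 without replicate 1 at 15 days and 147 without replicate 2 at 15 days. Of the 72 genes named below that passed, 10 also passed without each of the 4 arrays in turn, namely PRR5, ELF4, COR27, CCR2, DRM1, RbcX1, MEE14, AOC2, HSP17.4 and NIG1, while 29 passed only with all 4. Across genes, which are not independent replicates, the difference at 7 days and that at 15 days had a Pearson r of 0.355. The 2 interaction fits left only 3 and 2 residual degrees of freedom. The lack of calls there thus does not show that the replicate difference was equal at both ages.

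**Figure D1:**
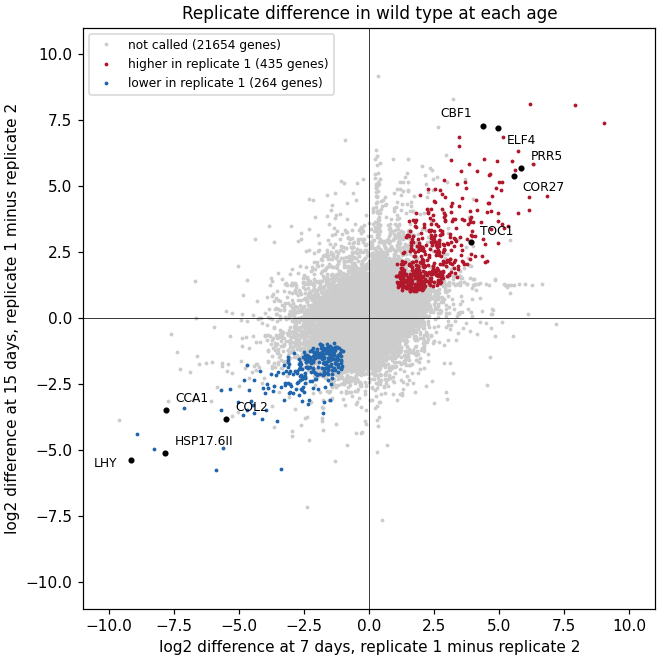
Log2 difference between WT replicate 1 and replicate 2 at 7 days (horizontal axis) and at 15 days (vertical axis), 1 point per gene, with the 435 genes higher and the 264 lower in replicate 1 by limma in red and blue and a few genes named. The coloured genes lie in the upper right and lower left corners, with LHY at −9.17 and −5.39 and PRR5 at 5.84 and 5.70.

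Clock genes were examined in lists by time of day, most of them by the time at which they are known to peak. The evening list also holds relatives of evening genes, such as ZTL, whose own transcript is not known for an evening peak. Of 12 dawn and morning genes, 4 were lower by the test (LHY, RVE8, LNK2 and LNK3) and none higher, and 8 lay below replicate 2 without overlap. The median difference of the 12 was −2.54, against −0.04 over all genes. Of 16 evening genes, 9 were higher and none lower, 13 lay above replicate 2 without overlap, and the median difference was 1.65. Over all genes, 1.95% were higher and 1.18% lower by the test, and 20.3% lay above and 20.5% below without overlap. The counts of each list below are to be read beside these shares. Without one WT array (replicate 1 at 7 days, replicate 2 at 7 days, replicate 1 at 15 days, replicate 2 at 15 days), the evening count was 3, 1, 4 and 3 and the morning count 0, 0, 2 and 1. The median of the evening genes minus that of the morning genes was 2.89 and 1.43 on the replicate 1 arrays at 7 and 15 days, and −3.71 and −3.18 on the replicate 2 arrays.

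LHY had log2 levels of −5.99 and −2.65 in replicate 1 at 7 and 15 days, and of 3.18 and 2.73 in replicate 2. Both replicate 1 arrays lay far below both replicate 2 arrays, and the gap of −7.28 ± 0.98 came to 155-fold (adjusted p = 0.0193 by limma). CCA1, its partner, had levels of −5.24 and −2.17 against 2.59 and 1.31. The arrays did not overlap, but the difference of −5.65 ± 1.18 narrowly missed the limma threshold (adjusted p = 0.0572). In both genes the gap was wider at 7 than at 15 days, since the 15-day array of replicate 1 was less low. The call for LHY held without replicate 1 at 15 days (adjusted p = 0.0433) and was lost without replicate 1 at 7 days, replicate 2 at 7 days or replicate 2 at 15 days (adjusted p = 0.0698, 0.135 and 0.0513).

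RVE8, a MYB activator of afternoon and evening genes, and its coactivators LNK1 and LNK2 share the morning phase. RVE8 had levels of −4.78 and −3.74 in replicate 1 against 0.57 and −1.05 in replicate 2, a 16.2-fold gap (−4.02 ± 0.78, adjusted p = 0.0479 by limma). LNK3 had levels of −3.24 and −1.41 against 1.83 and 1.76, or −4.12 ± 0.54 (adjusted p = 0.0186). LNK2 had levels of −1.56 and −0.19 against 2.53 and 2.46, or −3.37 ± 0.50 (adjusted p = 0.0242). These 3 genes kept the order of LHY, with the 7-day array of replicate 1 lowest and both replicate 2 arrays above. LNK1 lay below without overlap but did not pass (0.11 and 1.08 against 2.77 and 2.55, adjusted p = 0.0562), and neither did PRR9, the first of the pseudo-response regulators in the day (−6.14 and −3.77 against −1.80 and −2.04, adjusted p = 0.0878). RVE4, RVE1 and LNK4 had differences of −1.07, −2.38 and −1.83 at 7 days and of 0.05, −0.15 and 0.26 at 15 days, and did not pass (adjusted p = 0.579, 0.378 and 0.439 by limma). RVE7 and RVE2, of the same MYB family, had positive differences of 0.88 and 0.96 that did not pass the limma test (adjusted p = 0.137 and 0.225).

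PRR5 had levels of 1.09 and 1.01 in replicate 1 against −4.75 and −4.69 in replicate 2. Each replicate held its level to within 0.1 between the ages, and the difference of 5.77 ± 0.29 was 54.6-fold (adjusted p = 0.00124 by limma). PRR7, which peaks earlier than PRR5, had levels of 0.62 and 1.89 against −0.02 and 1.21. Its arrays overlapped, and the difference of 0.66 ± 0.28 did not pass (adjusted p = 0.233). TOC1, the last of the PRR family to peak, had levels of 1.26 and 0.64 against −2.63 and −2.23, a 10.4-fold difference (3.38 ± 0.29, adjusted p = 0.00537). PRR3, a partner of TOC1, was 19.9-fold higher (−1.39 and −1.65 against −6.34 and −5.33, adjusted p = 0.0345 by limma). All PRR genes from PRR5 onward were thus high in replicate 1, with no overlap of arrays.

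The genes of all 3 parts of the evening complex were higher in replicate 1. ELF4 had levels of 1.16 and 1.09 in replicate 1 against −3.77 and −6.13 in replicate 2, a difference of 6.07 ± 0.49 (67.3-fold, adjusted p = 0.0052 by limma). LUX, the DNA-binding subunit, had levels of 2.67 and 1.3 against −1.76 and −1.50, or 12.3-fold (3.62 ± 0.63, adjusted p = 0.0369), and its other 2 probes gave 3.23 and 3.66. ELF3, the scaffold, differed least, with −0.22 and 0.00 in replicate 1 against −2.07 and −1.54 in replicate 2 (3.25-fold, adjusted p = 0.042). BOA, a close relative of LUX, was 11.6-fold higher (−0.28 and −2.28 against −4.23 and −5.40, adjusted p = 0.0116 by limma).

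Other genes of the evening list spanned a wide range. FKF1, a blue-light receptor of the photoperiod pathway, had levels of 1.19 and 0.41 against −1.68 and −1.72 and was 5.67-fold higher in replicate 1 (adjusted p = 0.0123 by limma). Its relatives ZTL and LKP2 had differences of 0.21 and 0.68 (adjusted p = 0.769 and 0.274). GI, which binds FKF1 and ZTL, had levels of 0.97 and 0.96 against −0.05 and −1.23 and missed the threshold (1.61 ± 0.35, adjusted p = 0.0608). JMJ30, a histone demethylase with an evening peak, was 3.84-fold higher (adjusted p = 0.0352), and ELF4-L4 was 2.93-fold higher (adjusted p = 0.0297 by limma). The other ELF4-like genes had differences of −0.29 (ELF4-L1), 0.28 (ELF4-L2) and 0.28 (ELF4-L3), with opposite signs at 7 and 15 days, and CHE, a TCP repressor of CCA1, had one of 0.54 (adjusted p = 0.442).

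**Figure D2:**
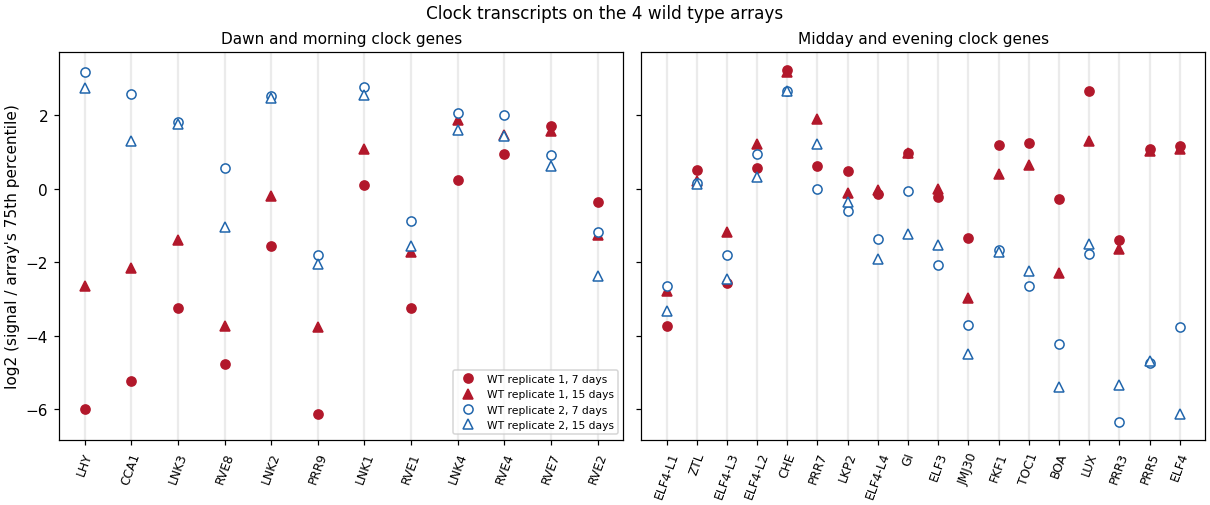
Log2 level of each clock gene (signal over the array's 75th percentile) on the 4 WT arrays, with replicate 1 in filled red, replicate 2 in open blue, circles for 7 days and triangles for 15 days, genes ordered by their difference. LHY sits at −5.99 and −2.65 in replicate 1 and above 2.7 in replicate 2, whereas PRR5 sits near 1 in replicate 1 and near −4.7 in replicate 2.

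Of 8 kept genes of the photoperiod list, 3 were lower in replicate 1 and none was higher, with a median difference of −1.62. CDF1 belongs to the DOF repressors of CO, the central activator of long-day flowering, and COL1 and COL2 are its closest relatives. That count of 3 became 1, 0, 2 and 2 with the WT arrays left out in the same order. COL2 had levels of −3.58 and −1.99 against 1.93 and 1.81, a 25.2-fold gap (−4.66 ± 0.51, adjusted p = 0.0116 by limma). COL1 was 14.3-fold lower (−3.38 and −1.3 against 1.17 and 1.82, adjusted p = 0.0259). CDF1 was 5.22-fold lower (−2.01 and −1.41 against 0.52 and 0.82, adjusted p = 0.0101). In these 3 genes both arrays of replicate 1 lay well below both of replicate 2. CDF3 and CDF2 had differences of −2.07 and −1.17 that did not pass the limma test (adjusted p = 0.0594 and 0.164). CO itself was dim on all 4 arrays (−3.81 and −6.73 against −6.32 and −7.16) and did not pass (adjusted p = 0.353).

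The B-box family, to which CO belongs, consists of zinc finger factors of light signalling. Its 19 listed genes split both ways, with 2 higher, 1 lower and a median difference of −0.45. With the WT arrays left out in the same order, the higher genes were 2, 0, 2 and 2 and the lower genes 0, 0, 1 and 1, and on the 4 WT arrays alone 3 were higher and 7 lower. BBX7 had levels of 0.21 and −1.48 against −5.51 and −5.46 and was 28.9-fold higher in replicate 1 (4.85 ± 0.41, adjusted p = 0.00537 by limma). BBX20 was 8.82-fold higher (0.75 and −0.79 against −2.50 and −3.82, adjusted p = 0.0067). BBX30, which codes for a microprotein, had levels of −7.44 and −6.32 against −1.75 and −3.60 (−4.21 ± 0.74, adjusted p = 0.0373), and was at background on 1 array of replicate 1. BBX31 and BBX16 lay below replicate 2 (−3.75 and −3.33) and BBX22 above it (1.94) without passing the limma test (adjusted p = 0.0712, 0.0636 and 0.102). The list is not the whole family: outside it, 2 further genes with a BBX reference symbol were also higher in replicate 1.

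Among 8 long-known outputs of the clock, 2 were higher in replicate 1 and none was lower, with a median difference of 0.50. The count was 1 with any WT array left out, after quantile normalization and in the authors' deposited value table, where CCR1 did not pass. CCR2 and CCR1 code for glycine-rich RNA-binding proteins with an evening peak. CCR2 had levels of 6.20 and 6.02 against 3.07 and 2.01, or 11.9-fold (3.57 ± 0.28, adjusted p = 0.0046 by limma). CCR1 was 2.56-fold higher (5.21 and 5.04 against 4.01 and 3.52, adjusted p = 0.0426). The catalase genes CAT2, known for a morning peak, and CAT3, known for an evening peak, had differences of −1.74 and 0.54, of opposite sign, neither of which passed (adjusted p = 0.132 and 0.256). LHCB1.3, a light-harvesting antenna gene, had 6.90 on both replicate 1 arrays against 6.56 and 6.33 (adjusted p = 0.309). Close paralogs such as CCR1 and CCR2, COL1 and COL2, the CBF genes, the small heat shock genes and the IGMT genes may share signal on these probes.

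Of 13 kept genes of starch breakdown, which runs at night in leaves, 3 were higher in replicate 1 (1.95% of all genes were) and none lower. Of the 13, 9 lay above without overlap (20.3% of all genes did). The median difference was 1.33 over both ages, 2.31 at 7 days and 0.85 at 15 days. PHS2, the cytosolic glucan phosphorylase, had levels of 3.03 and 2.65 against −0.53 and 0.50, or 7.24-fold (2.86 ± 0.38, adjusted p = 0.0192 by limma). DPE1, the plastid disproportionating enzyme, was 5.08-fold higher (2.06 and 1.29 against −1.0 and −0.34, adjusted p = 0.0287). PWD, a dikinase that phosphorylates starch, was 4.62-fold higher (1.14 and 0.85 against −1.46 and −0.96, adjusted p = 0.0263), while its second probe gave a difference of 0.66 in place of 2.21. The glucan phosphatase gene SEX4, the dikinase gene GWD1 and the amylase gene AMY3 had differences of 1.79, 1.75 and 1.80 with no overlap, and did not pass the limma test (adjusted p = 0.0567, 0.0877 and 0.0817). BAM3, a chloroplast beta-amylase, did not share the pattern, with −0.30 and 0.58 in replicate 1 against 2.29 and 0.21 in replicate 2. With the WT arrays left out in the same order, the count of 3 became 0, 0, 3 and 0.

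None of 11 genes of starch synthesis passed the test, and their median difference was 0.21. GBSS1, the granule-bound starch synthase and a target of CCA1 and LHY, had levels of −2.52 and −1.04 in replicate 1 against 3.56 and 2.11 in replicate 2. The arrays were far apart, but the difference of −4.61 ± 0.99 had an adjusted p of 0.061 by limma.

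Of 18 kept genes known to be induced by darkness or sugar shortage, 3 were higher in replicate 1 and none lower, 10 were at least 2-fold higher at both ages (4.41% of all genes were), and the median difference was 1.36. That count of 3 became 2, 1, 2 and 1 with the WT arrays left out in the same order. DRM1 and DRM2, dormancy-associated genes repressed by sugar, were bright on all arrays. DRM1 had levels of 5.39 and 5.82 against 1.94 and 1.56 (14.4-fold, adjusted p = 0.00348 by limma), and DRM2 had 5.87 and 6.36 against 2.72 and 2.12 (12.9-fold, adjusted p = 0.0117). DIN4, a subunit of branched-chain keto acid dehydrogenase, was 3.15-fold higher (−0.27 and −0.31 against −1.96 and −1.93, adjusted p = 0.0324). MCCA, of leucine breakdown, just missed the limma threshold (1.49 ± 0.29, adjusted p = 0.0501). ASN1, an asparagine synthetase, had a difference of 2.26 and BCAT2, a branched-chain aminotransferase, one of 2.33 (adjusted p = 0.0579 and 0.0877 by limma).

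Of 12 kept light-induced and photoprotective genes, 1 was lower in replicate 1 (1.18% of all genes were) and none higher. Of the 12, 9 lay below without overlap (20.5% of all genes did). The median difference was −1.94 over both ages, −2.59 at 7 days and only −0.56 at 15 days. The count of lower genes was 3 after quantile normalization and in the authors' deposited value table, and 5 after normexp. FTSH8, the gene that passed here, did so only with all 4 WT arrays. It codes for a thylakoid protease of photosystem repair and had levels of 0.01 and 0.34 against 2.68 and 2.53, or 5.39-fold lower (−2.43 ± 0.32, adjusted p = 0.0186 by limma). With the WT arrays left out in the same order, the count of 1 became 0, 0, 2 and 0. The early light-induced genes had wider gaps with more scatter. ELIP2 had levels of −5.34 and −0.27 against 4.3 and 3.6, and ELIP1 had −4.12 and −0.84 against 3.62 and 2.29. Neither passed the limma test (adjusted p = 0.0548 and 0.0549), though each passed in 8 of the 12 alternatives that kept all WT arrays. RUP2, a repressor of the UV-B receptor, did not pass (−2.47 ± 0.54, adjusted p = 0.0641).

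Of 17 phenylpropanoid and flavonoid genes, 3 were lower in replicate 1 (1.18% of all genes were) and none higher. Of the 17, 11 lay below without overlap (20.5% of all genes did), and the median difference was −1.18. That count of 3 became 0, 0, 1 and 1 with the WT arrays left out in the same order. MYB75, an activator of anthocyanin synthesis, had levels of −7.15 and −5.72 against −2.53 and −3.01 (12.7-fold lower, adjusted p = 0.0334 by limma). F3H, an early flavonoid enzyme, was 10.4-fold lower (−1.02 and −0.24 against 3.40 and 2.11, adjusted p = 0.0393). 4CL3, the ligase that feeds flavonoid synthesis, was 8.70-fold lower (−3.45 and −3.73 against 0.22 and −1.16, adjusted p = 0.0116). PAL1, the entry enzyme, and MYB111, a flavonol regulator, had differences of −1.26 and −1.18 that did not pass (adjusted p = 0.0851 and 0.147).

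None of 17 antenna and Rubisco genes passed the test and none was 2-fold apart at both ages. By small amounts, 11 lay above without overlap (20.3% of all genes did), with a median difference of 0.34. Of 12 genes of chlorophyll synthesis, 1 was higher, while 7 were lower and 2 higher at both ages in sign alone, and the median difference was −0.20. After quantile normalization and in the authors' deposited value table the list had no higher and 1 lower gene. Over all genes, 1.95% were higher and 1.18% lower by the test, so that a single gene is no result about its list here. PORB, a protochlorophyllide reductase that needs light, had levels of 5.11 and 5.19 against 2.28 and 3.40 (4.94-fold, adjusted p = 0.033 by limma), and did not pass with any WT array left out. CAO, which makes chlorophyll b, had a difference of −1.62 that did not pass (adjusted p = 0.0847). Of 12 genes of carotenoid and plastid isoprenoid synthesis 1 was lower, namely PSY, the first committed enzyme of carotenoids (1.82 and 1.70 against 3.52 and 3.44, 3.29-fold, adjusted p = 0.0287 by limma), which also passed only with all 4 WT arrays.

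**Figure D3:**
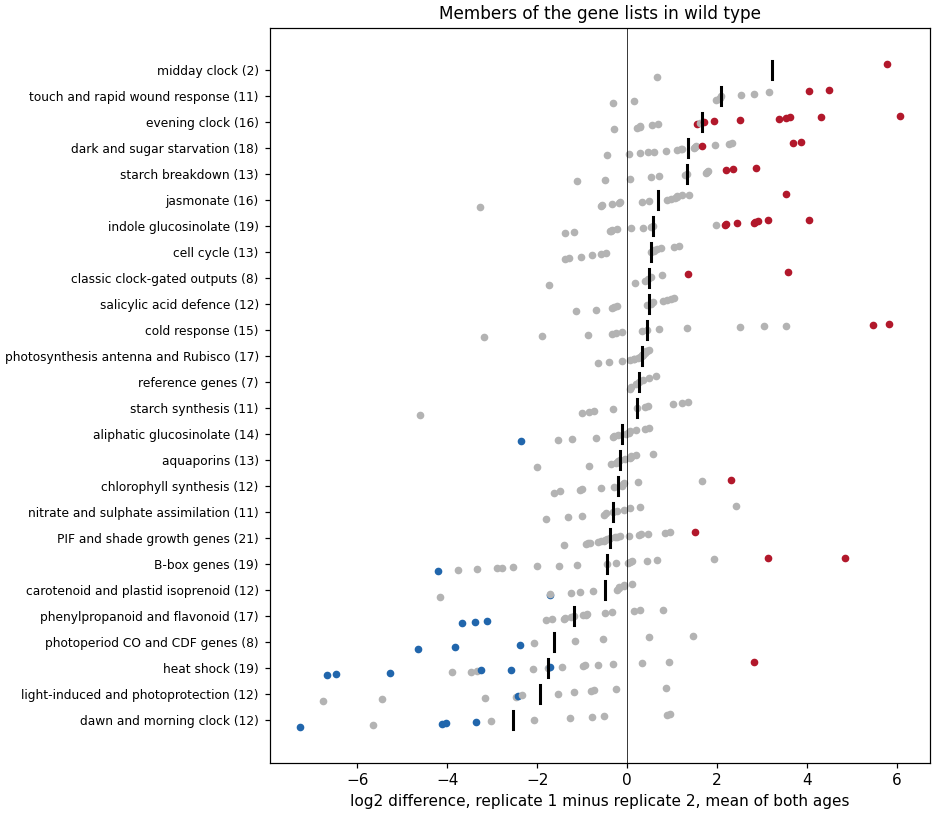
Log2 difference between WT replicate 1 and replicate 2, mean of both ages, for each kept gene of 26 lists (number of genes in brackets), with genes higher by limma in red, lower in blue, not passing in grey, and the list median as a black bar. Medians run from −2.54 for dawn and morning clock genes to 3.22 for the 2 midday genes, and photosynthesis and reference genes lie close to 0.

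Of 19 heat shock genes, 6 were lower in replicate 1 (1.18% of all genes were) and 1 was higher (1.95% of all genes were). Of the 19, 14 lay below without overlap (20.5% of all genes did), and the median difference was −1.76. HSP17.4, a small heat shock protein that keeps unfolded proteins soluble, had levels of −6.74 and −7.27 against −1.10 and −2.37 (38.6-fold, −5.27 ± 0.31, adjusted p = 0.00228 by limma). HSP17.6A had levels of −8.32 and −6.09 against 0.63 and −1.71 (101-fold, adjusted p = 0.0223), and HSP17.6II was 88.9-fold lower (adjusted p = 0.0104). These 3 genes were well above background on only 1 of the 2 replicate 1 arrays, so their folds rest in part on background. HSFA2, the heat stress factor that sustains the response, had levels of −3.02 and −4.15 against 0.70 and −1.37 (9.49-fold, adjusted p = 0.0227). HSP101, the disaggregase, was 5.99-fold lower (adjusted p = 0.034), and GOLS1, a galactinol synthase under heat stress factors, was 3.27-fold lower (adjusted p = 0.0168 by limma).

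The cytosolic chaperones HSP70 and HSP90.1 and the immunophilin gene ROF2 had differences of −3.47, −3.33 and −3.89 without overlap, and did not pass the limma test (adjusted p = 0.0796, 0.0821 and 0.0597). HSP18.2 had differences of −0.90 and 0.27 at 7 and 15 days. DREB2A, a factor of drought and heat response, was the only gene of the list that was higher by the test (−0.88 and 0.26 against −2.98 and −3.29, 7.07-fold, adjusted p = 0.0406). With the WT arrays left out in the same order, the count of 6 lower genes became 3, 1, 3 and 4. Among 13 genes named as heat stress factors, a family looked at after the values were seen, HSFA8 was 14.7-fold higher (−0.36 and 0.12 against −4.28 and −3.72, adjusted p = 0.0104 by limma). HSFA6B was higher by a log2 of 4.56 ± 0.65 (−3.58 and −3.41 against −6.72 and −9.39, adjusted p = 0.0223) and was at background on 1 array of replicate 2.

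Of 15 cold response genes 2 were higher in replicate 1 and none was lower, with a median difference of −0.23 at 7 days and 0.97 at 15 days. The count was 1 without any one of the WT arrays, since CBF1 passed only with all 4. COR27, a cold-regulated gene that acts on the clock and is known for an evening peak, had levels of 2.36 and 0.79 against −3.19 and −4.59, or 44.2-fold (5.47 ± 0.26, adjusted p = 0.00123 by limma). CBF1, one of 3 tandem activators of cold acclimation, had levels of −1.01 and −0.30 against −5.40 and −7.57 (56.9-fold, adjusted p = 0.0484). CBF3 and CBF2 had differences of 3.52 and 3.05 without overlap and did not pass (adjusted p = 0.0516 and 0.137). Their target COR15A, which codes for a chloroplast protectant, had a difference of the opposite sign (−4.89 and 0.56 against −0.52 and 2.53, adjusted p = 0.131 by limma).

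Genes that respond quickly to touch and wounding had the highest list median after the 2 midday clock genes, 2.09. At 7 days their median was 1.49 and at 15 days 3.62. Of 11 genes, 2 were higher (1.95% of all genes were), none lower and 7 at least 2-fold higher at both ages (4.41% of all genes were). On the 4 WT arrays alone (1 residual degree of freedom) 9 of the 11 were higher, and without the age term none was. That count of 2 became 3, 0, 1 and 0 with the WT arrays left out in the same order. WRKY53, a factor of senescence and defence, had levels of 0.93 and 1.02 against −3.68 and −3.33 (22.4-fold, adjusted p = 0.0414 by limma). ERF6, an ethylene response factor, had levels of 1.53 and 2.17 against −1.33 and −3.06 (16.5-fold, adjusted p = 0.0307). WRKY40, WRKY33 and the calmodulin-like gene CML38 had differences of 3.15, 2.53 and 2.82 that did not pass (adjusted p = 0.0955, 0.11 and 0.17 by limma). Among 61 WRKY genes, counted after the values were seen, 6 were higher and none lower in replicate 1. One of them was WRKY30 (−1.29 and −2.73 against −5.81 and −6.76, 19.3-fold, adjusted p = 0.0277).

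**Figure D4:**
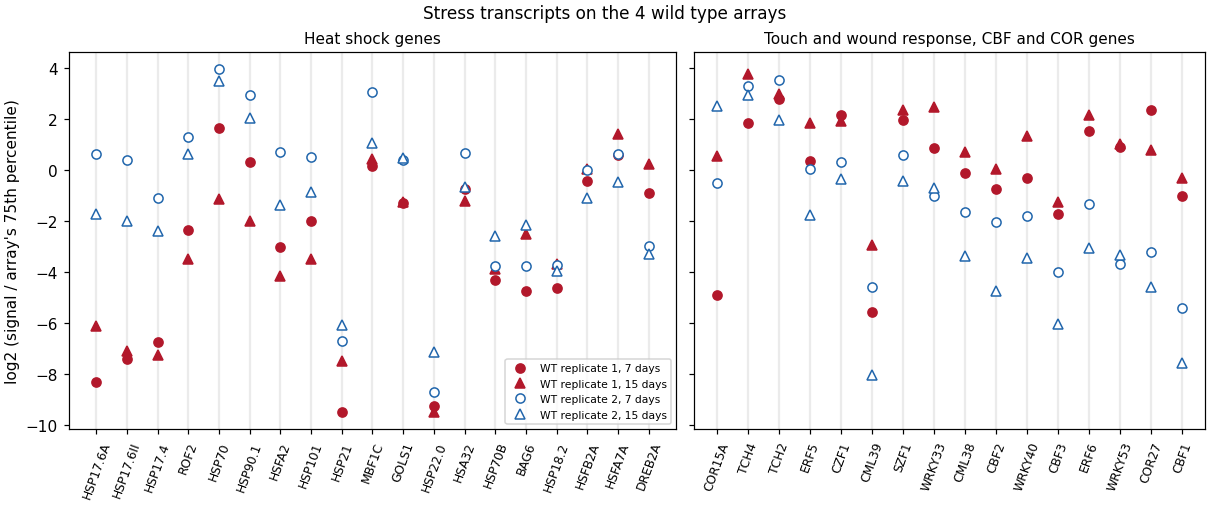
Log2 level of heat shock genes (left) and of touch and wound response, CBF and COR genes (right) on the 4 WT arrays, with replicate 1 in filled red and replicate 2 in open blue, circles for 7 days and triangles for 15 days. HSP17.6A, HSP17.6II and HSP17.4 lie at −6.09 or lower in replicate 1 and at −2.37 or higher in replicate 2, while COR27 and CBF1 lie higher in replicate 1.

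Of 16 jasmonate genes 1 was higher, AOC2, an allene oxide cyclase of jasmonate synthesis (3.33 and 3.18 against 0.02 and −0.58, 11.6-fold, adjusted p = 0.00348 by limma). OPR3, a later step of the same route, had a difference of 1.11 that did not pass (adjusted p = 0.0597). Of 12 salicylic acid genes none passed, with a median difference of 0.49. Of 21 shade and growth genes under the PIF factors 1 was higher, ST2A (0.27 and −1.38 against −1.0 and −3.10, 2.83-fold, adjusted p = 0.037 by limma), and its arrays overlapped across ages. It codes for an enzyme that sulphates a hydroxylated form of jasmonate. The median difference of these 21 genes was −0.39, with 7 lower and 5 higher at both ages in sign alone. ST2A and the next gene, MYB29, passed only with all 4 WT arrays. MYB29, a regulator of aliphatic glucosinolates, was lower (−5.12 and −2.49 against −2.66 and −0.22, 5.15-fold, adjusted p = 0.0382), the 1 gene of 14 on that list that passed. None of 11 genes of nitrate and sulphate assimilation, 13 aquaporin genes or 13 cell cycle genes passed. Over all genes, 1.95% were higher and 1.18% lower by the test, and the single genes named here are no result about their lists.

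Of 19 indole glucosinolate genes, 8 were higher and none lower by the test (1.95% and 1.18% of all genes were). The list was gathered after the values were seen, so its count is a description only. The 8 include IGMT1 to IGMT4, whose probes may share signal. Indole glucosinolates are sulphur compounds of the cabbage family that deter insects and microbes, and MYB51 is an activator of their synthesis. CYP81F2 hydroxylates the indole ring, and IGMT1 to IGMT4, a tandem cluster, add the methyl group. CYP81F2 had levels of 1.32 and 0.39 against −3.37 and −3.01 (16.5-fold, adjusted p = 0.031 by limma), and MYB51 had 0.42 and 1.11 against −2.12 and −2.03 (7.14-fold, adjusted p = 0.0414). IGMT1 had levels of 4.63 and 4.56 against 1.34 and 1.58, or 8.82-fold (3.14 ± 0.25, adjusted p = 0.0052). IGMT2, IGMT3 and IGMT4 were 7.10-, 5.42- and 7.56-fold higher. PEN2, the myrosinase that acts on the product, and PEN3, an exporter, were 4.52- and 4.59-fold higher (adjusted p = 0.0148 and 0.0117 by limma). The median over the list was only 0.57 (1.67 at 7 days and 0.70 at 15 days), and the enzymes of the core pathway were not among the 8. Of the 19 genes, 9 lay above replicate 2 without overlap (20.3% of all genes did). Below it lay 3 (20.5% of all genes did), none of the 3 passing the test. With the WT arrays left out in the same order, the count of 8 became 6, 0, 6 and 4.

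The genes with the widest gap at both ages reached beyond these lists. RbcX1, a Rubisco assembly chaperone, had levels of 2.91 and 3.82 in replicate 1 against −2.02 and −2.12 in replicate 2 (43.3-fold, adjusted p = 0.00316 by limma). MEE14, named for an embryo defect, had 5.39 and 5.92 against 1.28 and 1.42 (19.7-fold, adjusted p = 0.00228). TDR1, an ERF-type factor of defence, had −2.01 and −1.44 against −7.15 and −8.30 (63.8-fold, adjusted p = 0.0226 by limma). The neighbouring lectin-like genes PP2-B13 and PP2-B14 were 52.8- and 25.5-fold higher (adjusted p = 0.0154 and 0.0329). DREB2C, a relative of DREB2A, was 34.7-fold higher (adjusted p = 0.0116), with 1 replicate 2 array at background. CYP96A5, a cytochrome P450, was well above background on no replicate 2 array and was at least 11-fold higher (adjusted p = 0.0193 by limma).

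On the lower side, ABCF2, of the ABC protein family, was well above background on no replicate 1 array and was at least 11.3-fold lower (−3.85 and −3.91 in replicate 2, adjusted p = 0.0163 by limma). The same held for NIG1, a bHLH factor, at least 3.95-fold lower (adjusted p = 0.00348), and for JMT, which methylates jasmonate, at least 5.20-fold lower (adjusted p = 0.0194). These bounds set the mean of replicate 2 against each replicate 1 array's lowest signal well above background. ABCB13, an ABC transporter, had levels of −8.98 and −6.63 against −3.28 and −3.14 (24.1-fold, adjusted p = 0.0116 by limma), and was at background on 1 replicate 1 array, so that its fold rests in part on background. EGY3, a plastid protein of the site-2 protease family that lacks the catalytic motif, was 7.44-fold lower (−4.15 and −4.01 against −1.20 and −1.17, adjusted p = 0.025). CYP86A7, a fatty acid hydroxylase, was 7.52-fold lower (−6.79 and −6.41 against −3.75 and −3.62, adjusted p = 0.00537 by limma).

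The 6 mutant arrays divide along the same slides, with LFYasEMF1 on slide 1 and the other lines on slides 2 and 3. Genotype and slide cannot be told apart there. None of these arrays entered the WT difference, but all entered the spread behind the calls. Genes whose change with age was uneven across the mutant lines were thus less likely to be called. The shares over all genes given below carry no such selection. Of the 435 genes higher in WT replicate 1, 384 (88.3%) were also higher in LFYasEMF1 than in the mean of ult1-3 and LFYasEMF1/ult1-3 at both ages, against 35.9% of all genes, and 262 (60.2%) were at least 2-fold higher at both ages, against 6.2% of all genes. Of the 264 lower genes, 207 (78.4%) were lower in LFYasEMF1 at both ages, against 34.6% of all genes, and 115 (43.6%) at least 2-fold, against 4.04%. The median mutant difference was 1.48 and 1.44 at 7 and 15 days for the higher genes, and −1.04 and −1.0 for the lower genes. Over all genes it was 0.04 and −0.01.

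LHY, PRR5 and ELF4 had mutant differences of the same sign as in WT and of like size: −7.30 and −4.57 for LHY, 6.26 and 6.34 for PRR5, and 6.53 and 6.6 for ELF4 at 7 and 15 days. The evening minus morning median was 1.55 and −0.13 on the LFYasEMF1 arrays, lower than on the WT replicate 1 array of the same age. On the ult1-3 arrays it was −3.01 and −2.92, and on the LFYasEMF1/ult1-3 arrays −2.91 and −2.92. The starch genes PHS2, DPE1 and PWD had mutant differences of 2.53 to 3.28, and HSP17.4 had −4.33 and −4.66.

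A minority of the WT genes did not split this way in the mutants. Both ages had the opposite sign in 21 of the 435 higher and in 30 of the 264 lower genes. AOC2, at 11.6-fold in WT, had mutant differences of 0.05 and 0.03. BBX20 had 0.57 and 0.36, ABCB13 had −0.80 and −0.44, and WRKY30 had −2.30 and 0.28. ST2A had the opposite sign at both ages (−0.68 and −0.97). TDR1, 63.8-fold higher in WT replicate 1, had a mutant difference of 2.57 at 7 days and of 0.45 at 15 days.

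**Figure D5:**
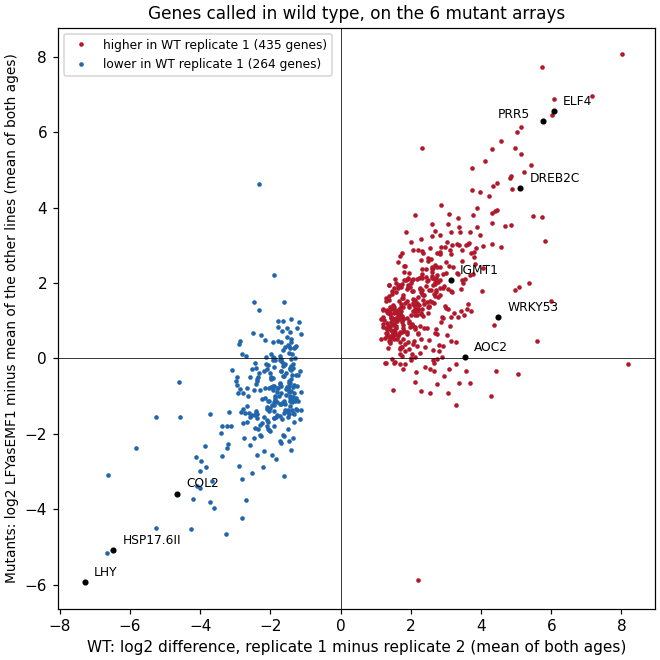
Each of the 699 genes called in WT, with its WT log2 difference (horizontal axis, replicate 1 minus replicate 2, mean of both ages) against its difference on the mutant arrays (vertical axis, LFYasEMF1 minus the mean of ult1-3 and LFYasEMF1/ult1-3, mean of both ages), higher genes in red and lower genes in blue. Most points lie in the lower left and upper right, with 384 of 435 higher and 207 of 264 lower genes sharing the sign at both ages, and AOC2 lies near 0 on the vertical axis.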

How the data were processed

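Per the labels, total RNA of whole seedlings was amplified, labelled with 1 dye and hybridized to Agilent arrays. Per the submitters' processing notes, the authors used Agilent Feature Extraction 10.7.1.1, and the deposited processed signal is an intensity per spot, background-subtracted and not normalized between arrays per the file headers. The authors' deposited value table, also an intensity, has column medians of 966.71 to 970.13 and 1 shared maximum. Its scale and steps are not given in the sources used here, and it served as an alternative.

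Of 43603 probes, 34358 had a locus by name match to RefSeq's TAIR10.1 gene table, which was used for names only. Outlier spots were left out, with 237 named probes that lacked a value on some array. Each signal was scaled to the 75th percentile of its array and log2-transformed. Genes well above background on at least 1 array were kept, each with its brightest probe (22353 genes). limma 3.58.1 in R 4.3.3 fitted genotype, age and array set to all 10 arrays (4 residual degrees of freedom). The array set term equals the mean of the WT replicate differences at 7 and 15 days, and the mutant arrays add only to the spread and the age term. The fit was tested on simulated data. Tests are two-sided.

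Members, lists and tests were chosen with earlier results of these data known. Of 387 list entries, 14 had a symbol that the reference does not list for the locus and were left out, and 367 of the remaining 373 were kept. Named were all clock genes, up to 6 members of each other list with the largest smaller-of-both-ages difference, members cited as not differing, and the 12 higher and 12 lower genes with the largest such difference among those passing the test and well above background in the brighter replicate. The indole glucosinolate list, HSP101, HSP70, HSP18.2, GOLS1, DREB2A, HSFA8, HSFA6B and WRKY30 were named after their values were seen. A planned description of promoter motifs was not run, since no promoter table was used here.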

Additional observations from a re-analysis of the deposited data

How the results depend on the processing

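The 699 genes that differed between the WT replicates were 797 after quantile normalization, 707 with the array median and 806 in the authors' value table. They were 1349 after normexp on median signals (offset 50), 1072 with a floor under dim signals, 1071 with an intensity trend and robust variances, and 187 without the age term, and the cause was not tested. On the 4 WT arrays alone (1 residual degree of freedom) 1026 genes passed, 427 of them shared. Leaving out each WT array gave 39 to 311 genes, from a fit with 1 array fewer, and the cause of the spread among these counts was not tested. At 4-fold, 362 genes agreed at both ages in place of 1856. The interaction with age had 2 calls after quantile normalization and none with a separate WT age term, which was added after seeing the data. Of 122 named genes 72 passed, 35 of them also in all settings that keep every array, 10 without each array in turn and 29 only with all 4 WT arrays. The sign held throughout in 117. It turned without a 7-day array in ELF4-L1 (0.28 and 0.15, range over the 4 arrays from −0.86), HSP18.2 (0.098 and 0.0033, from −0.73) and BAM3 (0.30, from −2.52). It turned without a 15-day array in ELF4-L2 (−0.19 and −0.051, range up to 0.75) and ELF4-L3 (−0.36 and −0.37, up to 0.92). None of these 5 genes passed the test. Arrays are paired by age, and age is a term of the fit, also on the 4 WT arrays alone. With the replicate number as a block no paired analysis was possible because that number is the contrast itself. With 2 arrays a side, dim genes at background on 1 of them have the least certain folds.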
